A study of Drosophila melanogaster with 4 samples.

Results

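Chromosome 4 of *Drosophila melanogaster* is the smallest autosome, and the regions described here are the clusters of Su(var)3-7 enrichment listed on it. Every row whose sequence was chromosome 4 was taken from each of the 3 deposited lists. These were 153 of the 5994 clusters of replicate 1, 157 of the 5617 of replicate 2 and 196 of the 11471 enriched clusters of the replicate set, or 506 of 23082 in all. The protein had been mapped by chromatin immunoprecipitation and sequencing (ChIP-seq) in larval nuclei of the wild-type strain Oregon-R at the third instar. The antibody is named Q3448 in the labels. There were 2 ChIP libraries, and each was called against the input chromatin library of the same number (2 input libraries). All 4 libraries came from the same strain and stage, the larvae were whole animals of many tissues, and no mutant or other antibody was part of the comparison. Whether the 2 replicates are separate collections of larvae is not stated, so SDs over them may be technical.

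Su(var)3-7 is a zinc-finger protein that binds the heterochromatin protein HP1 and the histone methyltransferase Su(var)3-9. Mutations in its gene weaken the silencing of reporter genes placed beside heterochromatin. Chromosome 4 carries HP1 and methylated histone H3 lysine 9 along much of its length, yet most of its genes are expressed. Reporter genes inserted into it show silencing at some sites and full expression at others, and heterochromatic and open domains are known to alternate along it.

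Positions are those of FlyBase release 5, in which the assembled chromosome runs from 1 at the centromere-proximal end to 1351857 at the distal end. Each cluster carries 1 value, made by the authors and taken here to be the log2 ratio of ChIP to input. No read counts are in the lists, so the depth behind a value is unknown. A genome sequence and gene annotation of this release were not used here, and clusters are given by position and not by gene.

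The 2 replicates covered almost the same amount of the chromosome. Clusters spanned 523.7 kb in replicate 1 and 518.6 kb in replicate 2, which was 38.55% ± 0.27 (SD, n = 2) of its bases. The replicate-set list spanned 690.0 kb, or 51.04%. No cluster of chromosome 4 ran past the end of the sequence, and none of the 5 regions marked as depleted in the replicate-set list lay on it. The first cluster began 14 bp from the proximal end in replicate 1 and 4 bp from it in replicate 2. The last one ended 2915 bp and 3429 bp before the distal end in replicates 1 and 2. Su(var)3-7 clusters therefore ran over the whole assembled chromosome, and 48.6% of its bases lay under no cluster of any list.

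Over most of the chromosome, cover rose and fell in the same places in both replicates. In consecutive 100 kb windows numbered from the proximal end, the mean cover was 51.1% ± 1.76 in window 1, against 26.8% ± 1.13, 21.6% ± 1.92 and 21.5% ± 1.14 in windows 2, 3 and 4 (SD, n = 2 for each). It was 45.2% ± 2.25 and 44.9% ± 2.27 in windows 5 and 6, then 36.7% ± 1.71 in window 7 (SD, n = 2). Window 8, from 700001 to 800000, held 65.7% ± 3.22 (SD, n = 2). Cover was 47.8% ± 0.21 in window 9 and 33.5% ± 3.07 in window 10, and 25.3% ± 2.19 and 26.6% ± 1.56 in windows 11 and 12 (SD, n = 2). It was 41.0% ± 1.32 in window 13 and 64.2% ± 0.03 in window 14, the last 51.857 kb (SD, n = 2). The chromosome thus had 3 densely covered zones, at its proximal end, in its middle and at its distal end, with 2 sparser stretches between them. Windows 8 and 14 differed by less than the spread between replicates of window 8, and so did windows 3 and 4 by less than that of either.

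**Figure D1:**
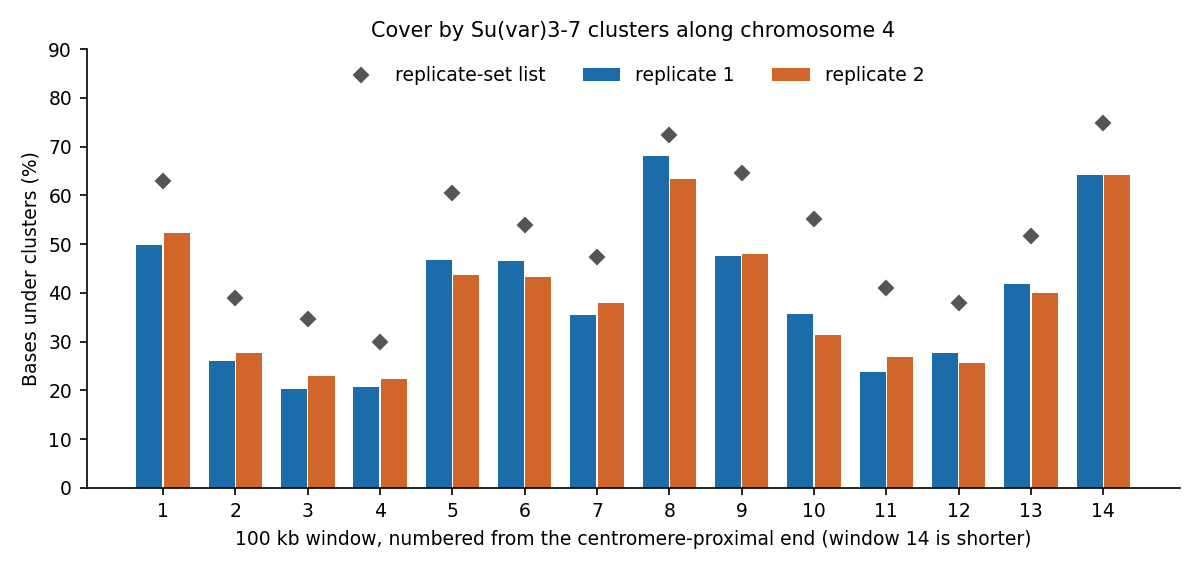
Percent of the bases of each 100 kb window of chromosome 4 under clusters (vertical axis), with bars for replicates 1 and 2 and diamonds for the replicate-set list; windows run from the centromere-proximal end. Both replicates are highest in windows 1, 8 and 14, where cover is 49.8% or more, and lowest in windows 3 and 4, where it is 23.0% or less.

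The replicates differed by at most 4.56 percentage points in any of the 14 windows. From window 3 to 4 and from window 11 to 12, cover rose in replicate 1 and fell in replicate 2. Across the windows Pearson's r between them was 0.99 and Spearman's rho 0.97, given as a description, since the windows share both libraries. The replicate-set list had more cover in every window, from 29.95% in window 4 to 74.8% in window 14. Its lowest window was the one with the lowest mean of the replicates.

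Smaller windows showed more steps within the middle zone. In 50 kb windows, mean cover was 58.6% ± 4.39 from 400001 to 450000 and 31.9% ± 0.12 in the next window, then 54.2% ± 2.09 and 35.7% ± 2.44 from 500001 to 600000 (SD, n = 2 for each). It was 28.6% ± 2.74 from 650001 to 700000 and 62.0% ± 2.10 in the window that follows (SD, n = 2). The sparsest full window of this size, from 1100001 to 1150000, held 12.01% ± 5.04 (SD, n = 2).

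Dense zones differed in what made them dense. Window 1 held wider and more enriched clusters than windows 2 to 4 at a like density. In both replicates, windows 5 to 10 and windows 13 to 14 held more clusters per Mb than windows 11 and 12. Window 1 held 10 clusters in replicate 1 and 9 in replicate 2, with median widths of 4372 bp and 5357 bp and median log2 values of 1.10 and 0.94. Windows 2 to 4 together, a stretch of 300 kb, held 28 and 30 clusters, with median widths of 1800 bp and 1851 bp and median log2 values of 0.55 and 0.53. The number of clusters per Mb was 100 and 90 in window 1, against 93.3 and 100 in windows 2 to 4. From 400001 to 1000000 the density was 131.7 and 133.3 clusters per Mb, with median widths of 2371 bp and 2449 bp. Within this stretch, window 8 had a like density of 140 and 130 per Mb, with larger median widths of 4094 bp and 2992 bp. From 1000001 to 1200000 the density was 85 and 75 clusters per Mb, with median widths of 2240 bp and 2593 bp, and the median gap between clusters was 7077 bp and 5644 bp. In the last 151.857 kb the density was 125.1 and 151.5 per Mb, with median widths of 2793 bp and 2203 bp. The replicate-set list had 144.9 per Mb there, against 145 from 1000001 to 1200000. Window 14 alone held 5 clusters in replicate 1 and 9 in replicate 2, so its density was not alike in the 2 replicates. Its median log2 values were 1.25 and 1.10. Median log2 values were 0.71 and 0.68 from 400001 to 1000000, 0.66 and 0.70 from 1000001 to 1200000 and 0.73 and 0.88 in the last 151.857 kb. Outside the proximal part, the order of these stretches by median width was not the same in the 2 replicates.

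Single clusters on chromosome 4 were narrow for the most part. The median width was 2284 bp in replicate 1 (quartiles 1703 and 4171 bp) and 2280 bp in replicate 2 (quartiles 1765 and 3876 bp). The narrowest had 1305 bp and 1311 bp. Those of 5 kb or more were 25 of 153 and 26 of 157, and they held 39.9% and 39.6% of the covered bases. In each replicate 4 clusters reached 10 kb. A few wide clusters thus made up a large part of the cover.

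The widest cluster of all 3 lists lay in window 8. It ran from 770900 to 789968 in replicate 1 (19069 bp), from 770740 to 790294 in replicate 2 (19555 bp) and from 770506 to 790248 in the replicate set (19743 bp). Its log2 values were 1.26 in replicate 1 and 1.20 in replicate 2, against 1.22 in the replicate-set list. With clusters less than 1 kb apart joined, this domain extended from 765520 to 792538 in replicate 1 and from 765585 to 792629 in replicate 2, about 27.0 kb in each. The second widest cluster of replicate 1, from 536061 to 552871 (16.8 kb), was divided in replicate 2, where its main piece ran from 541527 to 552671 (11.1 kb). Another wide cluster lay at the proximal end, from 12608 to 24686 (12.1 kb) in replicate 1 and from 12596 to 24788 (12.2 kb) in replicate 2. The cluster that began at 1195640 in replicate 1 was 8369 bp wide, and the one that began at 1195713 in replicate 2 was 10893 bp wide.

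Some other wide regions of the replicate-set list were divided in the replicates, and others were not. That from 1280070 to 1293724 (13.7 kb, log2 value 0.85) held 3 clusters in each replicate, which covered 90.1% of it in replicate 1 and 84.0% in replicate 2. Values of these clusters ran from 0.72 to 1.39 in replicate 1 and from 0.80 to 1.60 in replicate 2. The region from 731478 to 741987 (10.5 kb, 0.90) held 2 clusters of replicate 1 and 3 of replicate 2. That from 879328 to 889207 (9.88 kb, 0.72) was a single cluster in each, with values of 0.72 in replicate 1 and 0.74 in replicate 2, the lowest of the 10 widest in the replicate-set list. Width and enrichment thus did not go together at every site.

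Spacing was uneven in the same way. The gap from one cluster to the next had a median of 3227 bp in replicate 1 (quartiles 1009 and 6931 bp) and 3070 bp in replicate 2 (quartiles 908 and 7404 bp). Gaps under 1 kb were 38 of 152 (25%) and 42 of 156 (26.9%), and gaps of 10 kb or more were 29 in each replicate. Joining clusters less than 1 kb apart left 115 domains in each replicate, with median widths of 3373 bp and 3286 bp. Short breaks inside domains and long empty stretches between them therefore occurred side by side.

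The longest stretch without a cluster in any list ran from 335083 to 364452 (29.4 kb) in window 4. The next 3 were 93451 to 112219 (18.8 kb), 310346 to 328519 (18.2 kb) and 168173 to 185687 (17.5 kb). All of these except part of the second fell in windows 2 to 4. In the distal part, 1206606 to 1222420 (15.8 kb) was free of clusters directly beyond the wide cluster at 1195630 to 1206525 of the replicate set. In all, 11 stretches of at least 10 kb were free of clusters in all 3 lists. The longest gap of a single replicate was less firm. Replicate 2 had none from 1110060 to 1155674 (45.6 kb), and 3 clusters of replicate 1 covered 10.4% of that stretch. Replicate 1 had none from 92160 to 127536 (35.4 kb), and 2 clusters of replicate 2 covered 7.49% of it.

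**Figure D2:**
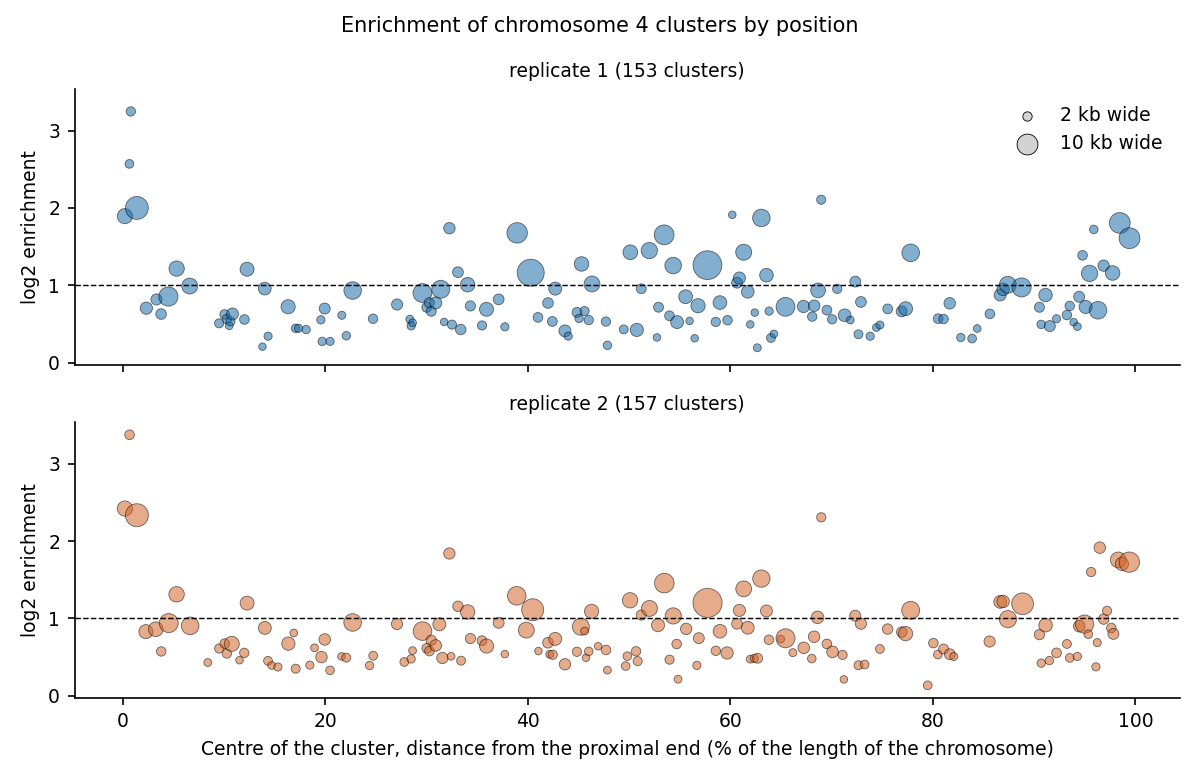
Log2 enrichment of each chromosome 4 cluster (vertical axis) by the distance of its centre from the proximal end, in percent of the length of the chromosome, for replicate 1 (top) and replicate 2 (bottom). The area of a circle is proportional to the width of the cluster and the dashed line marks a log2 value of 1. The highest values, above 3, lie at the proximal end in both replicates, and no cluster reaches 1 between 168078 and 434393.

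The enrichment of chromosome 4 clusters was modest at the median and high at a few places. The median log2 value was 0.69 in both replicates, with quartiles of 0.52 and 0.96 in replicate 1 and 0.51 and 0.93 in replicate 2. A value of at least 1 (a doubling over input) was reached by 35 of 153 clusters in replicate 1 (22.9%, against 27.1% of clusters over all sequences) and by 34 of 157 in replicate 2 (21.7%, against 30.6%). These clusters held 39.2% and 37.0% of the covered bases. Between 168031 and 434447 in replicate 1, and between 168078 and 434393 in replicate 2, a stretch of 266.4 kb and 266.3 kb, no cluster reached that value. A second such stretch ran from 1055372 to 1178178 in replicate 1 (122.8 kb) and from 1055437 to 1169411 in replicate 2 (114.0 kb). The first took in the end of window 2, windows 3 and 4 and the beginning of the more densely covered window 5, and the second lay in windows 11 and 12.

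The proximal end held the highest values. In replicate 1 the cluster from 14 to 5312 had a log2 value of 1.89, that from 7785 to 9556 had 2.57, that from 9573 to 11590 had 3.25 and that from 12608 to 24686 had 2.00. In replicate 2 the cluster from 4 to 5360 had 2.42, that from 7777 to 9935 had 3.37 and that from 12596 to 24788 had 2.34. All clusters within the first 25 kb therefore lay above the third quartile of their list. The replicate-set list joined most of this into 1 cluster from 6390 to 24817, of which 86.1% and 77.9% was covered by replicates 1 and 2.

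The narrow clusters with values of 2.57 and 3.25 in replicate 1, and 3.37 in replicate 2, each lay exactly 2 above a value that 24, 18 and 3 clusters of the same list carry. No read count is in the lists, and the part of low counts in these values was not tested.

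The distal end held lower values than the proximal end, in clusters of up to 10.2 kb in the replicate-set list. The replicate-set cluster from 1325885 to 1335961 had a value of 1.78. It matched 1 cluster of replicate 1 at 1.80 and 2 clusters of replicate 2 at 1.76 and 1.71. The last cluster, from 1338754 to 1348934, had 1.68 and matched clusters with 1.61 in replicate 1 and 1.73 in replicate 2. Both ends of the chromosome thus carried clusters that were wide and high in each replicate.

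Within the chromosome, the clusters found in both replicates that were among the 10 highest by their replicate-set value lay between 521559 and 1055477. The cluster from 848733 to 855937 had 1.68 in the replicate-set list, with 1.87 in replicate 1 and 1.52 in replicate 2. That from 718097 to 727304 had 1.54, with 1.65 and 1.46 in the replicates. That from 521559 to 531458 had 1.44, with 1.68 and 1.29, and was the one of these 3 whose replicates were furthest apart. Those from 825827 to 832146 and from 674390 to 679974 had 1.37 and 1.30. The last of the 10 highest lay from 1048003 to 1055477 at 1.24, in the otherwise sparse window 11. The cluster next in order, outside these 10, was the widest one in window 8 at 1.22.

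The median value was lower in the replicate-set list, at 0.45, than in the replicates, at 0.69 in both. In the replicate-set list, the 113 clusters found in both replicates had a median of 0.65. The 39 found in 1 replicate and the 44 found in neither had 0.32 each. Among single sites with a lower value in the replicate-set list, a pair is described here. At 931329 to 933234 replicate 1 had a log2 value of 2.10, and at 931373 to 933350 replicate 2 had 2.31. The replicate-set list joined this site into an 8298 bp cluster from 925055 to 933352 with a value of 0.87. The value in replicate 1 was carried by 2 clusters of that list and the value in replicate 2 by 4, so these too are repeated values. At 434448 to 437438 replicate 1 had 1.74, and at 434394 to 437362 replicate 2 had 1.84. Here the replicate-set cluster was 5873 bp wide and had 1.10. Both sites were chosen after their values had been seen.

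Wider clusters tended to have higher values. The highest value of each replicate was an exception, with 3.25 in a cluster of 2018 bp and 3.37 in a cluster of 2159 bp. Spearman's rho between width and log2 value was 0.71 over the 153 clusters of replicate 1 and 0.73 over the 157 of replicate 2, given as a description of clusters that share 1 library each. Clusters under 2 kb had median values of 0.47 and 0.49 in replicates 1 and 2. Those of 2 to 5 kb had 0.72 and 0.78, and those of 5 kb or more had 1.21 and 1.12. On the large autosome arms the same width classes had 0.54 and 0.55, 0.69 and 0.73, and 1.11 and 1.19. Narrow clusters of chromosome 4 had lower median values than narrow clusters of the arms.

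The clusters of the replicates were placed alike. The bases under both made up 77.2% of those under either, or 454.2 of 588.1 kb. By window this share ran from 56.7% in window 3 to 89.6% in window 8. Of the clusters of replicate 1, 131 of 153 (85.6%) overlapped a cluster of replicate 2 by at least 1 bp, against 69.4% over all sequences. Of those of replicate 2, 136 of 157 (86.6%) overlapped a cluster of replicate 1, against 74.2% over all sequences. Dense cover alone gives more overlap, and its part in these shares was not tested.

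Among the overlapping clusters, 107 pairs matched one to one. Their starts differed by a median of 115 bp and their ends by 97 bp, and in 80 of the pairs (74.8%) both ends lay within 500 bp. The largest shift of an end was 2597 bp. The median log2 value of the pairs was 0.72 in replicate 1 and 0.73 in replicate 2. Pearson's r between the values was 0.93 and Spearman's rho 0.92 over the 107 pairs, which lie on 1 chromosome and share both libraries. Within a pair the values differed by a median of 0.08. The pair furthest apart, by 0.53, was the first cluster of the chromosome, with 1.89 in replicate 1 and 2.42 in replicate 2. Overlaps that were not one to one are outside these pairs, and values could be further apart there. The cluster from 1302709 to 1305760 had 1.92 in replicate 2. It overlapped a wider cluster of replicate 1, from 1298294 to 1305474, at 0.68.

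**Figure D3:**
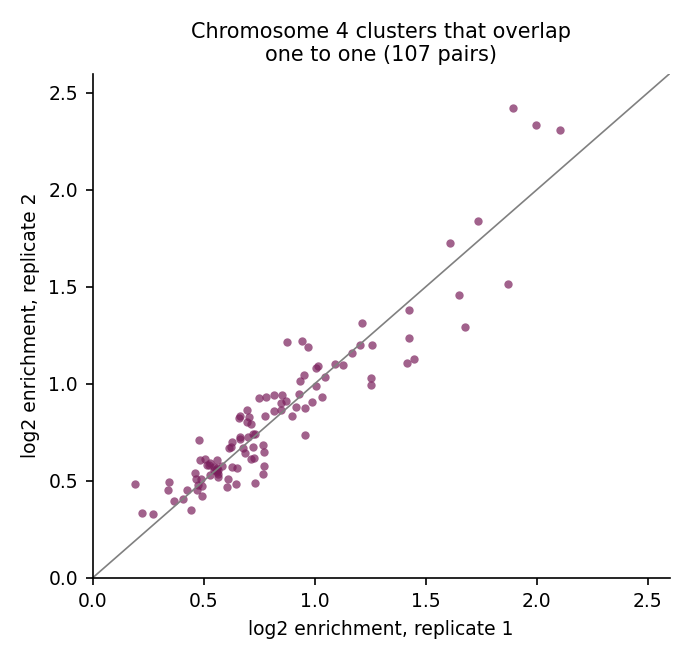
Log2 enrichment in replicate 1 (horizontal axis) and replicate 2 (vertical axis) for the 107 pairs of chromosome 4 clusters that overlap one to one; the line marks equal values. The points follow the line, and 1 pair differs by more than 0.5.

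Clusters seen in 1 replicate were narrow and mostly low. The 22 of replicate 1 were 1305 to 2001 bp wide with a median log2 value of 0.44, against 0.72 for the 131 shared ones. The 21 of replicate 2 were 1311 to 2094 bp wide with a median of 0.49, against 0.74 for the 136 shared ones. They lay at a median distance of 2775 bp and 3254 bp from the nearest cluster of the other replicate. Only 3 of these 43 had a value of at least 1. Those were 812920 to 814250 at 1.91 and 1295371 to 1297073 at 1.72 in replicate 1, and 1312935 to 1314888 at 1.10 in replicate 2. The value of 1.91 lay exactly 1 above one carried by 3 clusters of its list. No cluster of 5 kb or more was seen in 1 replicate alone.

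The replicate-set list had 113 of its 196 chromosome 4 clusters in both replicates (57.7%, against 30.7% over all sequences), 39 in 1 replicate (19.9%) and 44 in neither (22.4%, against 44.1%). Both replicates went into this list, so the shares lend no independent support. The 113 held 563.5 kb, or 81.7% of its bases. They were 3813 bp wide at the median and had a median value of 0.65. The 44 found in neither replicate held 56.2 kb, were 1199 bp wide at the median and had a median value of 0.32. The lists differ in their smallest width. On chromosome 4 it was 1004 bp in the replicate-set list, against 1305 and 1311 bp in replicates 1 and 2. In the replicate-set list, 31 clusters were narrower than any cluster of either replicate list, and the part of this in the shares was not tested. In bases, 106.6 kb of the list lay under no replicate cluster, of which 38.7 kb were edges and joins inside clusters found in both. The third highest value on the chromosome in this list, 2.07 at 35552 to 36571, belonged to a 1020 bp cluster found in neither replicate, and 6 clusters of the list carry that same value.

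Chromosome 4 was set beside the sequences most like it, the 6 heterochromatin scaffolds and the centromere-proximal 2 Mb of the 4 large autosome arms, and beside those arms as a whole. It had more clusters per Mb than the scaffolds or the proximal 2 Mb, with a smaller median width and a larger median gap. Its density was 113.2 and 116.1 clusters per Mb in replicates 1 and 2, against 100.1 and 96.4 on the scaffolds, 98.2 and 89.4 in the proximal 2 Mb and 37.7 and 34.0 on the large arms. The median width was 2284 and 2280 bp on chromosome 4, against 3262 and 3474 bp on the scaffolds, 3196 and 3213 bp in the proximal 2 Mb and 2017 and 2009 bp on the large arms.

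The median gap was 3227 and 3070 bp on chromosome 4, against 2082 and 1786 bp on the scaffolds, 1856 and 1807 bp in the proximal 2 Mb and 5256 and 6866 bp on the large arms. Relative to the proximal 2 Mb, chromosome 4 had 1.23-fold ± 0.10 the density, 0.71-fold ± 0.004 the median width, 1.72-fold ± 0.03 the median gap and 0.76-fold ± 0.006 the cover (SD, n = 2 for each). Relative to the scaffolds these were 1.17-fold ± 0.05, 0.68-fold ± 0.03, 1.63-fold ± 0.12 and 0.76-fold ± 0.05 (SD, n = 2 for each). All 8 of these ratios lay on the same side of 1 in each replicate.

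The long end of the spacing differed most from the arms. The longest gap was 35.4 and 45.6 kb on chromosome 4, against 723.3 and 791.8 kb on the large arms. It was 177.4 and 172.0 kb in the proximal 2 Mb and 146.0 and 117.8 kb on the scaffolds. The arms and the proximal 2 Mb are longer sequences with room for longer gaps. The upper quartile of gaps was 6931 and 7404 bp on chromosome 4, against 20882 and 26836 bp on the large arms. The share of clusters at least 5 kb wide was 16.3% and 16.6% on chromosome 4, against 12.3% and 10.5% on the large arms. It was 29.1% and 32.6% on the scaffolds and 33.1% and 32.7% in the proximal 2 Mb.

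**Figure D4:**
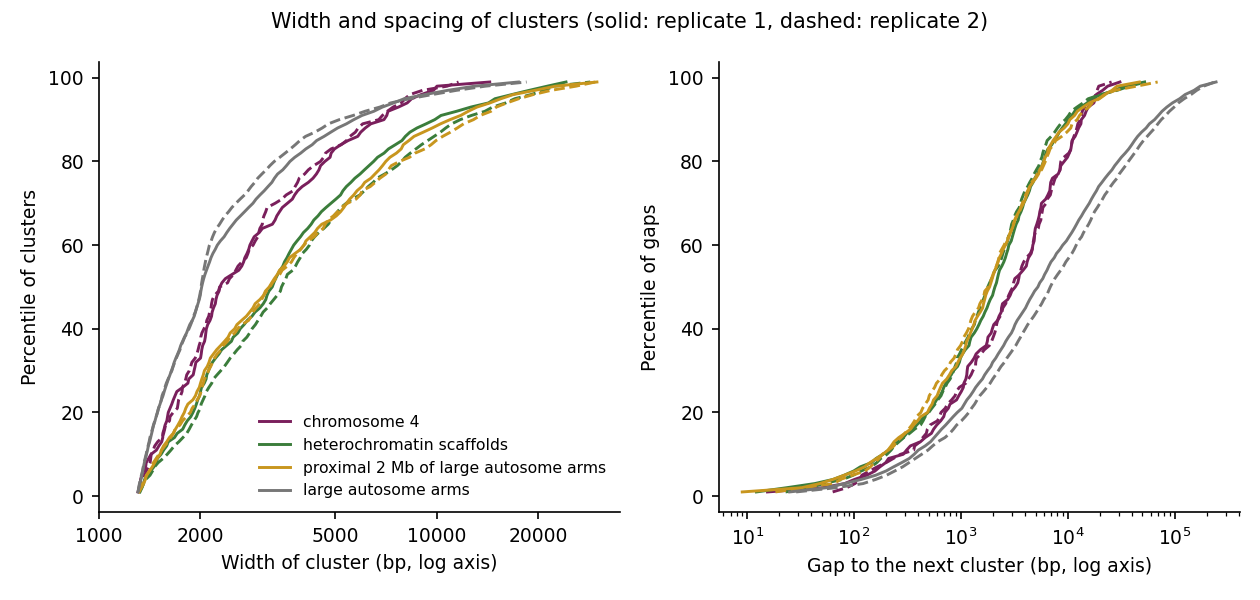
Percentile (vertical axis) of cluster width (left) and of the gap to the next cluster (right), both in bp on log axes, for chromosome 4, the heterochromatin scaffolds, the proximal 2 Mb of the large autosome arms and these arms as a whole. Solid lines are replicate 1 and dashed lines replicate 2. At the median, chromosome 4 lies between the arms and both the scaffolds and the proximal 2 Mb in both panels. Its medians are 2284 and 2280 bp in width and 3227 and 3070 bp in gap.

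In median enrichment, chromosome 4 was nearer to the arms than to the scaffolds or the proximal 2 Mb. Its median log2 value was 0.69 in both replicates, against 1.17 and 1.26 on the scaffolds, 0.87 and 0.86 in the proximal 2 Mb and 0.62 and 0.64 on the large arms. The difference from the scaffolds was -0.53 ± 0.06, that from the proximal 2 Mb -0.18 ± 0.001 and that from the large arms 0.06 ± 0.01 (SD, n = 2 for each). The share of bases common to the replicates was 77.2% on chromosome 4, against 79.7% on the scaffolds, 80.3% in the proximal 2 Mb and 55.5% on the large arms. With 2 paired replicates the smallest two-sided p of an exact permutation test is 0.5, and none of these differences was tested. Repeats in which reads have no unique position count toward every length used here, and their part in these differences was not tested.

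**Figure D5:**
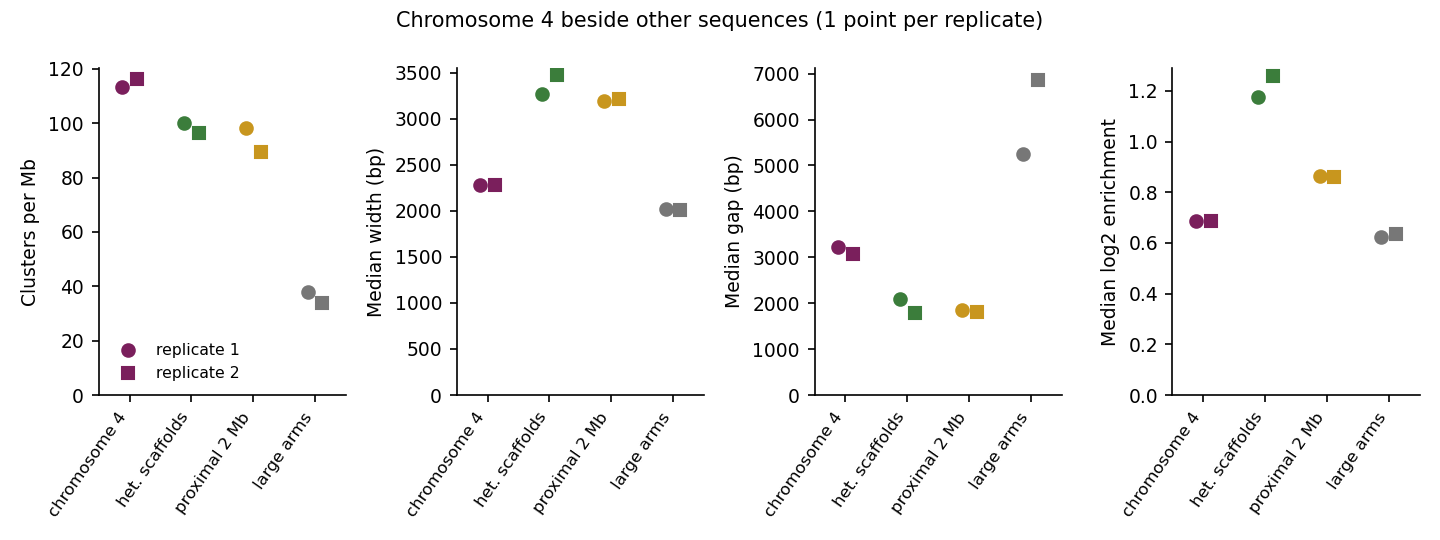
Clusters per Mb, median cluster width, median gap and median log2 enrichment (vertical axes) for chromosome 4, the heterochromatin scaffolds, the proximal 2 Mb of the large autosome arms and the large autosome arms, with 1 point per replicate. Chromosome 4 has the highest density, at 113.2 and 116.1 per Mb, and intermediate width, gap and enrichment.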

How the data were processed

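ChIP-seq libraries of Su(var)3-7 (2) and input (2) were grouped by their titles. The alignment used Bowtie 0.12.7, as the submitters' processing notes name it. Clusters are on FlyBase release 5, per the file headers. How clusters were called and replicates combined is not given in the sources used here. Cluster values deposited by the authors were read as a log2 enrichment, because repeated values lay exactly 1 apart. The lists held no counts, so the depth is unknown.

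Cover, width, gap, overlap (at least 1 bp) and 100 kb windows were computed with Python 3.11.15 and NumPy 2.4.6, and the interval functions were tested on simulated data. Medians and SDs are descriptions, and no test was run. Quartiles were linear percentiles. Chromosome 4 regions were named by rule: the 10 highest found in both replicates, the 10 widest, the 5 longest gaps, and the first and last cluster of the replicate-set list. Members and lists were chosen with earlier results of these data known. Alternatives were the upper portion of each list by value, a width minimum of 2 kb, joining below 1 kb, the replicate-set list, each replicate alone, other windows and an overlap of 50%. Gene overlap, base composition and motifs had been planned and were not analysed here, since the gene table at hand was on release 6.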

Additional observations from a re-analysis of the deposited data

How the results depend on the processing

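No paired analysis was possible because the input libraries have no list of their own and no value came from a test. With 2 replicates and no counts, depth limits every value to an unknown degree. Each result on chromosome 4 is a description, and the alternatives change what is described by their own construction. Cover was 26.0% in the upper 50% of each list by value, 32.2% with clusters at least 2 kb wide, 39.8% with clusters less than 1 kb apart merged and 51.04% in the replicate-set list. In the same order, clusters per Mb were 53.3, 75.1, 85.1 and 145.0, the median width 3933, 3232, 3330 and 2332 bp, and the median gap 7214, 4919, 5010 and 2103 bp. The median log2 value was 0.94 in the upper 50% by value within chromosome 4, 0.82 with clusters at least 2 kb wide and 0.45 in the replicate-set list.

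The ratio of chromosome 4 to the large autosome arms, for which the alternatives were chosen after the data had been seen, stayed above 1 in all of them. For cover (3.52) it was 4.20 in the upper 50%, 3.93 with clusters at least 2 kb wide and 2.46 in the replicate-set list. For clusters per Mb (3.21) it was 4.62, 4.07 and 1.87 in the same order. The Jaccard overlap was 78.2%, 78.0% and 78.7% in the upper 50%, with the width minimum and with merging, and the mean share of shared clusters was 84.5% with at least 50% of the cluster overlapped.

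The lowest window cover was 12.01% in 50 kb windows, 3.00% in the upper 50% and 29.95% in the replicate-set list. The highest was 69.4% in 50 kb windows, 51.2% in 200 kb windows, 57.4% in the upper 50% and 74.8% in the replicate-set list. It lay in the last window both in the upper 50% and in the replicate-set list. A last window shorter than its nominal size by more than 50% was left out.

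With 1 replicate left out, cover was 38.4 to 38.7%, clusters per Mb 113.2 to 116.1, the median width 2280 to 2284 bp, the median gap 3070 to 3227 bp, the median log2 value 0.69 in both, the lowest window 20.2 to 22.3% and the highest 64.2 to 68.0%. The windows themselves changed. With replicate 2 left out, the lowest was window 3 and the highest window 8. With replicate 1 left out, these were windows 4 and 14. The ratios to the arms were 3.31 to 3.74 for cover and 3.00 to 3.42 for clusters per Mb. Lengths without assembly gaps and gene overlap were not run. Overlap of the replicates has no value with 1 left out.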
